A study of Mus musculus with 16 samples.

Results

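The comparison set cells carrying a vector for Nfib directly against cells carrying a vector for Mycl1, without the untransfected cells. It used the 8 of 16 arrays whose labels name 1 of these vectors alone, 4 per vector. Both vectors were put into 3583T3 and 3151T4, 2 lines of mouse small cell lung cancer that were each grown from a dissociated tumour, and each line and vector was measured on 2 arrays. The Nfib cells received MSCV-Nfib-PGK-Neo, a retroviral vector with FLAG-tagged mouse Nfib and a neomycin resistance gene, and were selected with G418. The Mycl1 cells received MSCV-L-myc-PGK-Puro, which carries the complementary DNA of L-Myc (current symbol Mycl) and a puromycin resistance gene, and were selected with puromycin. Vector, resistance gene and drug therefore go together here and cannot be told apart. The genotype of the tumours and the animals' ages are not stated in the labels, and the labels do not say that the 2 arrays of a line and vector came from separate cultures. The p-values therefore cover the spread among these arrays alone, and that spread may be technical.

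Nfib belongs to the nuclear factor I family, transcription factors that bind DNA as dimers and are known in lung development and in cell differentiation. Mycl is a member of the MYC family, which binds the E-box sequence together with its partner Max and is known for raising genes of ribosome production and growth. Both genes are amplified in small cell lung cancer, a tumour of neuroendocrine type. Interferon-stimulated genes are switched on when interferon binds its receptor, and many carry the interferon-stimulated response element in their promoters.

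Promoter stretches of 8 genes show what the searched motifs look like in both leading gene groups. The 8 were chosen, after their values were seen, among called genes whose window holds the motif: 4 of ribosome biogenesis, higher with Mycl1, and 4 interferon-stimulated genes, higher with Nfib. They are RefSeq sequences of build GRCm38.p6, written 5′ to 3′ on the strand of the gene. Capitals mark the E-box CACGTG in the first 4, stretches of 30 bases. In the other 4, stretches of 60 bases, they mark the interferon element, read here as TTTC, any 2 bases and TTTC again, or its reverse complement.
Pes1: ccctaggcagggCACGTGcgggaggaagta
Utp20: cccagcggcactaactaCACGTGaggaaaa
Utp4: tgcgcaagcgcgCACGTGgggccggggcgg
Tsr1: tcacttggtgcaCACGTGgactgcagaatg
Trim30a: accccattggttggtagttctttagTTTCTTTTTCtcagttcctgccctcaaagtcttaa
Igtp: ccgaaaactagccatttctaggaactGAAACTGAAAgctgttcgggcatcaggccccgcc
Ifit1: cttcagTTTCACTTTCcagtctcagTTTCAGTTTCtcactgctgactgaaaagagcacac
Gbp2: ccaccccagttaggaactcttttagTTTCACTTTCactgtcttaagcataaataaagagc
The stretches lie at chr11:3963965-3963994 (plus strand) for Pes1, chr10:88826765-88826794 (minus) for Utp20, chr8:106893643-106893672 (plus) for Utp4 and chr11:74898092-74898121 (plus) for Tsr1. Those of the interferon-stimulated genes lie at chr7:104465195-104465254 (minus) for Trim30a, chr11:58199496-58199555 (plus) for Igtp, chr19:34640779-34640838 (plus) for Ifit1 and chr3:142620579-142620638 (plus) for Gbp2. The E-boxes of these 4 genes lie after the annotated start site, at bases 3 to 8 (Pes1), 38 to 43 (Utp20), 16 to 21 (Utp4) and 25 to 30 (Tsr1). The element lies before the start site in the other 4 genes, from base 36 to base 27 before it in Trim30a and from base 34 to base 25 in Igtp.

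Before the results, 1 of the 8 arrays stands apart from its label. Mycl, by the brightest of its probe sets, had log2 signals of 10.82 and 10.09 (3583T3) and 9.08 and 10.24 (3151T4) on the Mycl1 arrays. On the Nfib arrays it had 2.55 and 2.12 in 3151T4 and 2.28 in 3583T3 replicate 1, but 10.22 in the array labelled 3583T3 Nfib replicate 2. That array is at the level of the Mycl1 vector. It correlated best over the tested genes with 3583T3 Nfib+Mycl1 replicate 1 (r = 0.9898, against 0.9777 with the other array of its own label), and 3583T3 Nfib replicate 1 correlated best with 3583T3 Nfib+Mycl1 replicate 2 (0.9883). By the same Mycl probe set 3583T3 Nfib+Mycl1 replicate 2 had 2.67, near the floor. Whether the labels of that array and of 3583T3 Nfib replicate 2 were exchanged was not tested. Both were kept as labelled, and the results are given with and without 3583T3 Nfib replicate 2. Mycl differed by -5.76 ± 1.42 (SE, n = 4 arrays per vector) with it (limma, adjusted p = 0.0306) and by -7.66 without it (limma, adjusted p = 2.67e-05). The call with all 8 arrays was lost in 6 of the 8 fits that left out 1 array (limma, adjusted p up to 0.1045).

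No probe set of Nfib separated the vectors. The brightest had 10.46 and 10.23 (3583T3) and 10.40 and 9.82 (3151T4) with Nfib, against 10.44 and 10.42, and 10.58 and 10.31, with Mycl1, a difference of -0.21 ± 0.16 (limma, adjusted p = 0.409). The other 3 Nfib probe sets differed by -0.16, -0.54 and -0.39, none of them called. Whether they lie in the part of Nfib that the vector carries was not tested, and for that reason the Nfib transgene is unchecked here. Mycn, a further MYC family gene that neither label names, was at 12.19 to 13.25 on all 8 arrays by its brightest probe set with a difference that did not pass (-0.16 ± 0.18, limma, adjusted p = 0.588). On the 4 untransfected arrays that probe set was at 2.03 to 2.56, so its signal came with both vectors, and what it reads there was not tested. Another Mycn probe set lay between 2.93 and 4.93 on the 8 arrays, gave a different result and was called higher with Nfib in the fit over all probe sets (0.72 ± 0.17, limma, adjusted p = 0.0293). A second Mycl probe set that passed the filter was not called (-0.86 ± 0.70, limma, adjusted p = 0.437), and the last probe set of each gene did not pass the filter. Myc had 10.96 and 10.11 (3583T3) and 10.34 and 9.27 (3151T4) with Nfib, against 10.35 and 9.89, and 8.53 and 8.22, with Mycl1. Its difference of 0.92 ± 0.32 did not pass with all arrays (limma, adjusted p = 0.0823) and passed without 3583T3 Nfib replicate 2 (1.19, limma, adjusted p = 0.0201).

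**Figure D1:**
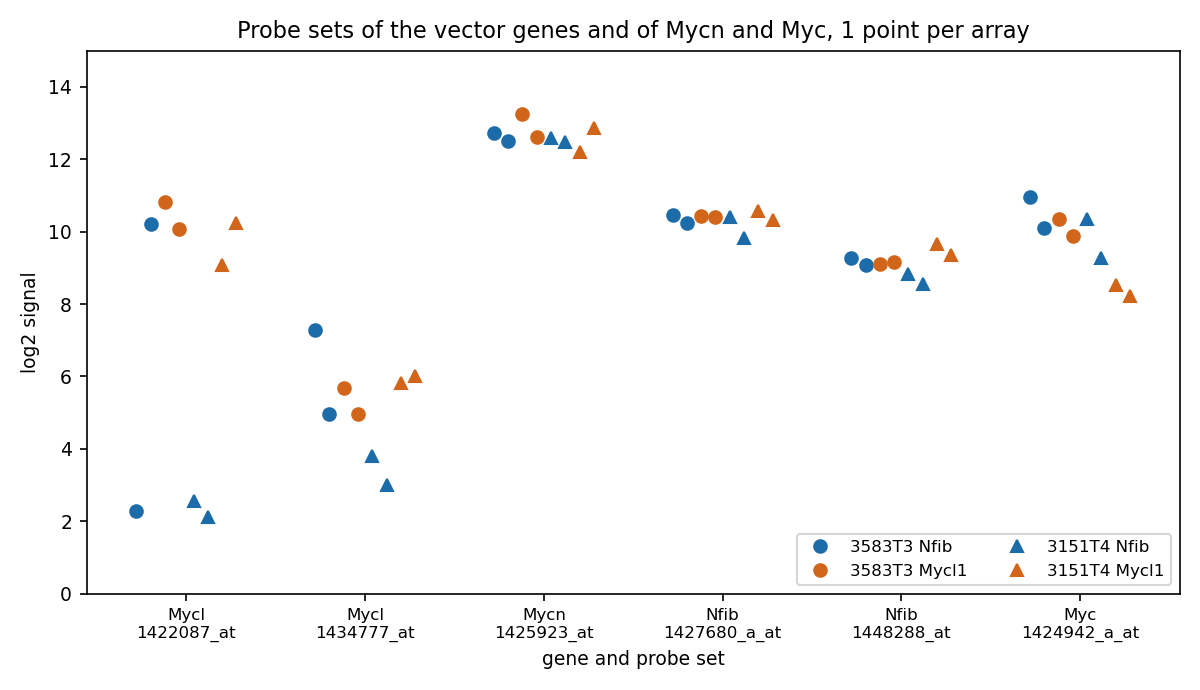
Log2 signal (vertical axis) of probe sets of Mycl, Mycn, Nfib and Myc, 1 point per array, coloured by vector and shaped by line. The brightest Mycl probe set is between 9.08 and 10.82 on the Mycl1 arrays and at 10.22 on 1 Nfib array, while the Nfib probe sets and the Mycn probe set shown overlap between the vectors.

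The labelled tumour type was checked against its defining markers. Chga (2.26 to 2.61) and Syp (2.54 to 3.19), both neuroendocrine markers, were near the floor on all 8 arrays, while Ncam1 was at 11.5 to 12.4 and Uchl1 at 7.88 to 11.4. Of 35 neuroendocrine genes on the array, 11 passed the filter on dim signal (above log2 4 on at least 2 of the 8 arrays). All 13 fibroblast markers passed that filter. In single markers, Col1a1 was at 11.7 to 12.4 on all 8 arrays. In all, 8606 of 12393 genes were tested, with 1 probe set per gene.

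With both lines together, 1093 genes (12.7%) differed between the vectors at a Benjamini-Hochberg adjusted p under 0.05 (limma, vector and line as terms). Of these, 657 (7.63%) were higher with Nfib and 436 (5.07%) higher with Mycl1, and 595 differed at least 2-fold, 418 of them higher with Nfib and 177 with Mycl1. All 1093 had the same sign in both lines. The fit has no term for a vector difference that changes with the line and counts it as spread. Genes with opposite signs can therefore hardly pass, and the shared sign is no separate result. In 1016 of the 1093 the arrays of the 2 vectors did not overlap in either line (615 higher with Nfib and 401 with Mycl1). The call itself favours such genes. Of all genes tested, 982 (11.4%) were apart in this way with Nfib higher and 1048 (12.2%) with Mycl1 higher. Without 3583T3 Nfib replicate 2 the count was 1776 (20.6%; 972, 11.3%, with Nfib and 804, 9.34%, with Mycl1), and 1036 of the 1093 were called both ways with the same sign. The count fell to 417, 373, 394 or 385 when 3151T4 Mycl1 replicate 3, Mycl1 replicate 4, Nfib replicate 3 or Nfib replicate 4 was left out. It was 2310 when each line and vector had its own mean, and 413 with the replicate number as a block. With the 2 arrays of each line and vector averaged limma called 0, in a fit with fewer samples. The median difference of all genes was -0.02.

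The largest differences towards Nfib were genes of interferon response and of extracellular matrix. Trim30a, an interferon-inducible TRIM family gene, had 8.87 and 11.06 (3583T3) and 9.09 and 9.42 (3151T4) with Nfib, against 3.45 and 3.29, and 3.75 and 3.99, with Mycl1. The 4 Nfib arrays all lay above the 4 Mycl1 arrays, by 63.6-fold on average (5.99 ± 0.44, limma, adjusted p = 0.000122). Sod3, the extracellular superoxide dismutase, had 8.03 and 8.0, then 9.77 and 10.26, with Nfib and stayed between 3.21 and 3.70 with Mycl1. It was 50.4-fold higher (5.65 ± 0.41, limma, adjusted p = 0.000119). Eln, which encodes elastin, had 6.83 and 6.69 in 3583T3 and 9.81 and 9.64 in 3151T4 with Nfib, and 2.77 to 2.93 with Mycl1, near the floor of the signal. Its fold of 42.0 (5.39 ± 0.51, limma, adjusted p = 0.000432) is open to that floor, since a level at background can hide a larger difference. Trim30a, Sod3 and Eln were under log2 4 on every Mycl1 array and passed the filter through the Nfib arrays alone. Their sign was therefore largely fixed in advance.

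Secreted airway proteins were also among the 12 largest. Slpi, a secreted protease inhibitor, had 11.93 and 11.49 in 3151T4 with Nfib against 3.13 and 3.14 with Mycl1, but only 5.57 and 5.62 against 3.93 and 4.00 in 3583T3. Bpifb1, a secreted protein of the airway, had 12.72 and 12.51 against 4.15 and 4.4 in 3151T4, and 4.86 and 5.60 against 3.20 and 3.60 in 3583T3. In both genes the groups stayed apart in each line, and the difference was called larger in 3151T4 (limma, adjusted p of the difference between lines 1.8e-06 and 1.62e-05). Ces2g, a carboxylesterase, was 26.7-fold higher (4.74 ± 0.89, limma, adjusted p = 0.0108). Of 8 airway secretory genes that passed the filter, of 23 on the array, these 3 were called, against 7.63% of all genes. Ces2g and Slpi passed the filter only through the Nfib arrays, so their sign was largely fixed in advance. Slpi and Bpifb1 lost the call when any 1 of the 3151T4 arrays was left out (limma, adjusted p up to 0.0799 and 0.067).

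The largest differences towards Mycl1, after Mycl itself, were smaller. Bex1, a small protein expressed in neural and neuroendocrine cells, had 11.31 and 12.01 (3583T3) and 9.19 and 8.48 (3151T4) with Mycl1, against 8.21 and 9.05, and 4.37 and 4.79, with Nfib. It was 12.5-fold higher with Mycl1 (-3.64 ± 0.33, limma, adjusted p = 0.00032), and the arrays were apart within each line though not across them. Cytip, which binds cytohesins, had 9.81 and 9.96, then 8.66 and 8.19, with Mycl1 and 7.95 and 6.63, then 4.45 and 4.81, with Nfib (9.13-fold, -3.19 ± 0.34, limma, adjusted p = 0.000743). Chodl, a membrane lectin-type protein, had 6.57 and 6.38 (3583T3) and 5.38 and 5.44 (3151T4) with Mycl1 against 2.75 to 3.42 with Nfib. Its arrays did not overlap across the lines either (-2.81 ± 0.19, limma, adjusted p = 0.000119). Chodl passed the filter through the Mycl1 arrays alone, so its sign was largely fixed in advance. The others of the 12 were Car8 (-2.94), Aif1l (-2.89), Bex4 (-2.88), Ptprz1 (-2.85), Stk26 (-2.80), the probe set annotated to the T cell receptor segment Trav9d-3 (-2.61), Bdh1 (-2.56) and Bik (-2.49). Stk26 was not called without any 1 of the 3151T4 arrays (limma, adjusted p up to 0.107), and Bex4 not without any 1 of the 3583T3 arrays (up to 0.075). Bex4 passed the filter through the 3583T3 Mycl1 arrays alone, at 8.22 and 7.94. Its difference was -5.03 in 3583T3 and -0.72 in 3151T4, where it lay near the floor with both vectors.

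**Figure D2:**
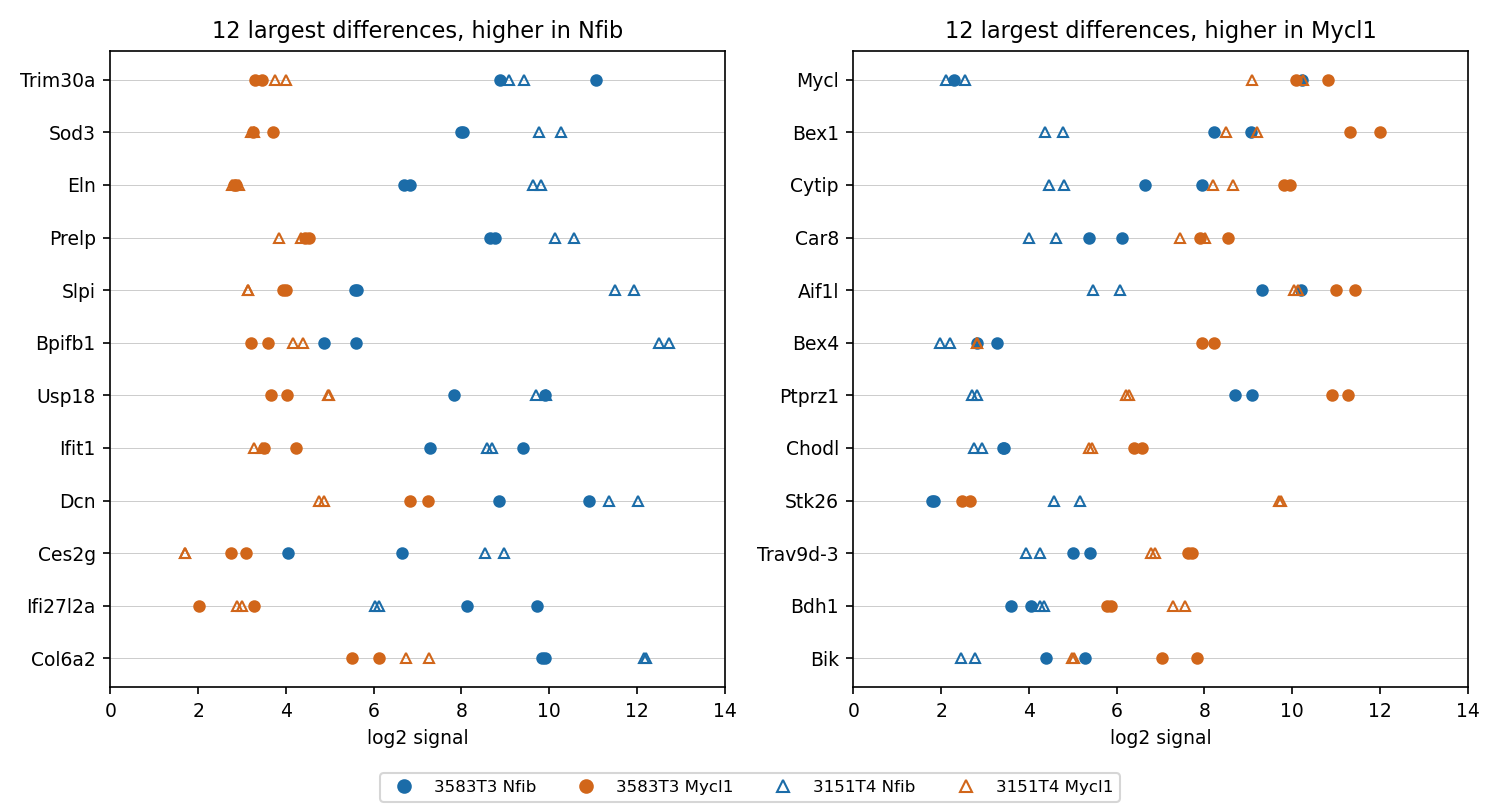
Log2 signal (horizontal axis) of the 12 called genes with the largest difference in each direction, 1 point per array, with circles for 3583T3 and triangles for 3151T4. Trim30a lies between 8.87 and 11.06 on the Nfib arrays and between 3.29 and 3.99 on the Mycl1 arrays, and Mycl shows the 1 Nfib array at 10.22.

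Interferon-stimulated genes were higher with Nfib as a group. Of 31 tested, from 37 on the array, 24 were called higher with Nfib, against 7.63% of all genes. All 31 differences were positive, and the median was 2.35 against -0.02 for all genes. The filter lets in members through the Nfib arrays alone, such as Trim30a, which was under log2 4 on every Mycl1 array. For such members a positive sign was largely fixed in advance. The call took in 25 when 3583T3 Nfib replicate 2 was left out (median 2.43), and leaving out each array in turn gave 20 to 26. The medians within the lines were 2.23 (3583T3) and 2.51 (3151T4). Of the 31, 4 were called different between lines, against 9.1% of all genes.

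Irf9, a DNA-binding transcription factor of the interferon response, had 8.73 and 9.60 (3583T3) and 9.50 and 9.63 (3151T4) with Nfib, against 6.26 and 6.52, and 6.10 and 6.51, with Mycl1. It was 8.07-fold higher with no overlap (3.01 ± 0.23, limma, adjusted p = 0.000146). Usp18, which removes the ubiquitin-like protein Isg15 and restrains interferon receptor signalling, had 7.83 and 9.90, then 9.93 and 9.69, with Nfib and 3.66 to 4.98 with Mycl1 (30.6-fold, 4.94 ± 0.38, limma, adjusted p = 0.000146). Ifit1, which binds foreign RNA, had 7.29 and 9.41, then 8.70 and 8.58, with Nfib and 3.28 to 4.23 with Mycl1 (29.5-fold, 4.88 ± 0.42, limma, adjusted p = 0.000268). Igtp, an immunity-related GTPase, had 6.36 and 7.44, then 8.99 and 9.04, with Nfib and 4.06 and 3.18, then 5.69 and 5.68, with Mycl1 (9.89-fold, 3.31 ± 0.28, limma, adjusted p = 0.000251). Gbp2, a guanylate-binding protein, was 5.44-fold higher (2.44 ± 0.27, limma, adjusted p = 0.000827). In 3583T3 the array labelled Nfib replicate 2 was the higher of the pair for Irf9, Usp18, Ifit1 and Igtp and for Trim30a. Their differences without it were still called: 2.89 for Irf9, 4.50 for Usp18, 4.54 for Ifit1, 3.09 for Igtp and 5.43 for Trim30a.

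The antigen presentation genes that interferon induces lay the same way. Of 15 genes of MHC class I presentation, 9 were called higher with Nfib (7.63% of all genes) and all 15 differences were positive (median 0.80). Leaving out 1 array gave 4 to 9, with 4 or 5 when the array was from 3151T4. H2-K1, a class I heavy chain, had 10.85 and 11.20 (3583T3) and 11.37 and 11.28 (3151T4) with Nfib, against 10.03 and 10.05, and 10.43 and 10.18, with Mycl1 (2.00-fold, 1.00 ± 0.13, limma, adjusted p = 0.00171). H2-D1 differed by 1.00 ± 0.14, and H2-M3, which presents formylated peptides, by 1.29 ± 0.21. Class I heavy chains are alike in sequence, so a probe set of 1 may read others. Tapbp, the chaperone tapasin, was 1.74-fold higher (0.80 ± 0.13, limma, adjusted p = 0.0052).

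In the promoter windows (250 bases before to 50 after the start site, both strands), the interferon element was found in 12 of the 17 called interferon-stimulated genes that had a window (70.6%), and in 14 of the 23 tested (60.9%). It was in 3.73% of the 6999 tested genes with a window, in 8.11% of those called higher with Nfib, in 3.92% of those called higher with Mycl1, and in 3.44% of all 32851 windows. Ifit1 holds 2 copies in the stretch printed above. The palindrome bound by nuclear factor I dimers, TTGGC and GCCAA with any 5 bases between them, was in 2 of the 6999 genes, 1 of them among the 493 called higher with Nfib. These are matches of letters and say nothing about binding in these cells.

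Genes of the extracellular matrix were the other large group towards Nfib. Of 17 elastic fibre genes, 9 were called, of 16 collagens 7, of 18 basement membrane genes 6, all higher with Nfib, and of 31 proteoglycans and matricellular proteins 12 were called higher with Nfib and 1 higher with Mycl1. Of all genes, 7.63% were called higher with Nfib and 5.07% higher with Mycl1. The medians of the 4 lists were 0.80, 0.80, 0.57 and 0.44. The counts higher with Nfib were 10, 8, 8 and 14 without 3583T3 Nfib replicate 2. With 1 array of 3151T4 left out they were 6 or 7, 4 or 5, 2 or 3, and 7 or 8.

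Col6a2 and Col6a1 encode chains of collagen VI. Col6a2 had 9.91 and 9.84 (3583T3) and 12.16 and 12.20 (3151T4) with Nfib, against 6.13 and 5.52, and 6.74 and 7.26, with Mycl1. It was 24.5-fold higher (4.62 ± 0.26, limma, adjusted p = 8.19e-05). Col6a1 had 10.98 and 10.95, then 12.43 and 12.31, with Nfib and 9.20 and 8.77, then 9.59 and 10.01, with Mycl1 (4.85-fold, 2.28 ± 0.18, limma, adjusted p = 0.000146). Neither overlapped between the vectors. Col5a3 (1.84 ± 0.33) and Col11a1 (1.33 ± 0.21), chains of fibrillar collagens, were called too.

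Loxl3, a lysyl oxidase that cross-links elastin and collagen, had 7.35 and 7.13 (3583T3) and 10.53 and 10.49 (3151T4) with Nfib, against 5.58 and 5.25, and 7.63 and 8.01, with Mycl1 (4.78-fold, 2.26 ± 0.22, limma, adjusted p = 0.000515). Fbln5, which assembles elastic fibres, differed by 1.28 ± 0.24 and the microfibril gene Mfap5 by 1.43 ± 0.26. Lama4, a laminin chain of basement membranes, had 8.60 and 8.43, then 10.00 and 9.90, with Nfib and 5.17 to 6.27 with Mycl1 (11.6-fold, 3.54 ± 0.22, limma, adjusted p = 8.19e-05). Col4a6, a collagen IV chain, was 4.01-fold higher (2.01 ± 0.37). The laminin chains Lamb1 (0.67) and Lamc1 (0.59) were called less firmly, with adjusted p up to 0.0917 and 0.0918 (limma) when 1 array was left out.

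Prelp, a small leucine-rich proteoglycan, had 8.65 and 8.76 (3583T3) and 10.57 and 10.14 (3151T4) with Nfib, against 3.85 to 4.52 with Mycl1 (37.8-fold, 5.24 ± 0.38, limma, adjusted p = 0.000119). Dcn, decorin, had 10.90 and 8.86, then 12.03 and 11.37, with Nfib and 6.83 and 7.23, then 4.88 and 4.75, with Mycl1 (29.2-fold, 4.87 ± 0.76, limma, adjusted p = 0.00491). Postn, periostin, had 11.32 and 11.84 against 6.54 and 6.52 in 3583T3, and 12.92 and 12.94 against 11.14 and 11.01 in 3151T4, so here the larger difference was in 3583T3 (limma, adjusted p of the difference between lines 0.000163). Gpc6, a cell surface glypican, was 2.28-fold higher (1.19 ± 0.18). Among proteinases that act on matrix and their inhibitors, 5 of 18 were higher with Nfib (7.63% of all genes) and 2 with Mycl1 (5.07%), and the 5 became 2 without any 1 of the 3151T4 arrays and 7 when 3583T3 Nfib replicate 2 was left out. Mmp19 differed by 2.78 ± 0.42, its inhibitor family member Timp1 by 0.78 ± 0.14 and the membrane inhibitor Reck by 2.29 ± 0.49, while the collagenase gene Mmp13 was higher with Mycl1 (-1.93 ± 0.20). Without any 1 array of 3151T4, Reck was not called (limma, adjusted p up to 0.0709).

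Fibroblast markers lay on the side of the matrix genes. Of 13 fibroblast markers, 9 were called higher with Nfib, against 7.63% of all genes. The count was 8 without 3583T3 Nfib replicate 2 and 5 without any 1 of the 3151T4 arrays. The median of the 13 markers was 1.43. Their summed signal on the linear scale was 16009 to 19690 with Nfib and 7797.9 to 10775 with Mycl1 in 3583T3, and 36668 to 39649 against 14628 to 16055 in 3151T4. Several of them are themselves matrix genes counted above, such as Dcn, Lum, Postn and Mfap5. In bulk RNA, more cells of a kind and more RNA per cell cannot be told apart, and the part of these markers in the matrix result was not tested. Col1a1, a fibrillar collagen chain at 11.7 to 12.4 on the 8 arrays, was not called (0.01 ± 0.13, limma, adjusted p = 0.965).

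Pdgfra, a receptor for platelet-derived growth factor, had 10.19 and 10.41 (3583T3) and 12.71 and 12.49 (3151T4) with Nfib, against 7.45 and 7.59, and 7.82 and 7.53, with Mycl1 (14.5-fold, 3.85 ± 0.38, limma, adjusted p = 0.000515). Its relative Pdgfrb differed by 0.90 ± 0.17. The mesenchymal transcription factors Twist1 (0.86 ± 0.16) and Twist2 (0.92 ± 0.18) were also called, and in all 6 of 21 genes of the mesenchymal list were called higher with Nfib, against 7.63% of all genes (3 or 4 without any 1 of the 3151T4 arrays). Markers of other cell types were mixed. Of 25 leukocyte markers, 9 passed the filter, among which Cd53 was called higher with Nfib (2.42 ± 0.69) and Lcp1 higher with Mycl1 (-0.91 ± 0.22). Both of these calls were lost without any 1 of the 3151T4 arrays (limma, adjusted p up to 0.155 and 0.104). The summed signal of the leukocyte markers on the linear scale was lower with Nfib in 3583T3 (295.59 to 325.07, against 488.52 to 531.42) and higher with Nfib in 3151T4 (1083.7 to 1086.4, against 387.66 to 529.02). Ptprc, which marks leukocytes, was at 1.98 to 2.30, while Cd14 was at 6.29 to 8.29 on the 8 arrays and Cd74 reached 8.61 in 3151T4 with Nfib. Of 15 endothelial markers 4 passed the filter and 8 were below log2 4 on all 8 arrays, among them the defining Pecam1, Cdh5 and Vwf, at or under 2.67. Their summed signal was also opposite in the lines, 506.13 to 1282.1 with Nfib against 1545.5 to 1630 with Mycl1 in 3583T3, and 2634.2 to 2829.9 against 195.29 to 213.14 in 3151T4. On the linear scale a few bright members weigh most in this sum, above all Esam and Flt1 (11.285 and 11.404 on the 3151T4 Nfib arrays). It does not show a shift of the markers as a group. Esam, an endothelial adhesion molecule, had 9.52 and 5.26 with Nfib and 10.41 and 10.43 with Mycl1 in 3583T3 and lay at or under 2.60 in 3151T4. Flt1, a receptor for vascular endothelial growth factor, was 14.5-fold higher with Nfib (3.86 ± 0.35, limma, adjusted p = 0.00032). Hopx, a homeodomain-only gene of the lung epithelium list, was 18.1-fold higher (4.18 ± 0.50, limma, adjusted p = 0.00124), and lay in the same list as the surfactant gene Sftpc (3.35 to 5.09), which was called too (0.93 ± 0.25, limma, adjusted p = 0.0398, and up to 0.1256 with 1 array left out). These were the 2 called of 6 lung epithelium markers that passed the filter, of 13 on the array, against 7.63% of all genes. The other surfactant genes Sftpa1, Sftpb and Sftpd were at or under 2.71, while Aqp5 (9.70 to 10.81) and Abca3 (8.56 to 9.99) were well above the floor on the 8 arrays and not called (Abca3 was called without 3583T3 Nfib replicate 2, 0.71, limma, adjusted p = 0.0309). The part of these markers in the other results was not tested.

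Signalling genes differed on both sides. Of 30 genes of the Wnt and hedgehog pathways, 10 were higher with Nfib (7.63% of all genes) and 1 with Mycl1 (5.07%). The median was 0.60, and the 10 became 7 without any 1 of the 3151T4 arrays. The inhibitors of Wnt ligands led them. Sfrp1 had 7.66 and 7.80 (3583T3) and 7.48 and 7.29 (3151T4) with Nfib, against 3.21 and 3.03, and 4.72 and 4.96, with Mycl1 (11.9-fold, 3.58 ± 0.38, limma, adjusted p = 0.000706). Sfrp2 was 2.2-fold higher (1.14 ± 0.12). Gas1, a surface protein that binds hedgehog ligands, had 9.49 and 11.49, then 12.46 and 12.56, with Nfib and 7.08 and 7.94, then 9.0 and 8.54, with Mycl1 (10.3-fold, 3.36 ± 0.40, limma, adjusted p = 0.0012). The receptor gene Fzd3 was the 1 member higher with Mycl1 (-1.44 ± 0.21).

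In the TGF-beta and BMP pathway 5 of 34 genes were higher with Nfib (7.63% of all genes) and 3 with Mycl1 (5.07%), and the median was 0.06. Without any 1 of the 3151T4 arrays the 3 became 0. The ligand genes Bmp4 (1.55 ± 0.19) and Tgfb3 (1.00 ± 0.16), the activin-binding protein Fst (1.54 ± 0.28) and the co-receptor Tgfbr3 (1.96 ± 0.27) were higher with Nfib. Of 31 genes of axon guidance and neuronal adhesion 8 were higher with Nfib (7.63% of all genes). They included the receptor Unc5c (2.10 ± 0.26), the ligands Sema5a (1.95 ± 0.29) and Slit3 (1.15 ± 0.19) and the co-receptor Nrp1 (0.90 ± 0.14), and the group counted 5 without any 1 of the 3151T4 arrays, 3583T3 Mycl1 replicate 2 or 3583T3 Nfib replicate 1. Of 19 Notch pathway genes, Nrarp, a feedback inhibitor induced by Notch, was higher with Mycl1 (-1.17 ± 0.21). Notch2 had 0.43 ± 0.12 (limma, adjusted p = 0.0463, and up to 0.142 with 1 array left out).

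Genes of cell death lay on both sides, 7 of 29 higher with Nfib (7.63% of all genes) and 2 with Mycl1 (5.07%), and the 7 became 3 without any 1 of the 3151T4 arrays. The 2 were both BH3-only killers: Bik (-2.49 ± 0.26) and Pmaip1, also called Noxa, which had 12.05 and 12.59 (3583T3) and 10.53 and 9.85 (3151T4) with Mycl1, against 10.89 and 10.90, and 7.19 and 6.87, with Nfib (4.91-fold, -2.30 ± 0.34, limma, adjusted p = 0.00385). Towards Nfib were Casp12 (1.54 ± 0.20) and Cflar, an inhibitor of caspase-8 (1.02 ± 0.14). Of 30 genes of hypoxia and glycolysis 4 were higher with Nfib, against 7.63% of all genes, and 7 when 3583T3 Nfib replicate 2 was left out. Among the 4 were Bnip3 (0.91 ± 0.12), Pdk1 (0.79 ± 0.14) and Ndrg1 (0.71 ± 0.14). Hk2, a hexokinase gene, was higher with Mycl1 (-1.43 ± 0.31, and limma, adjusted p up to 0.0682 with 1 array left out).

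Ribosome biogenesis was the group that lay towards Mycl1. Of 46 genes tested, 21 were called higher with Mycl1, against 5.07% of all genes, and all 46 differences were negative (median -0.83). Without 3583T3 Nfib replicate 2 the call took in 36 of the 46 (median -0.93). The count depends on single arrays of both lines. Without any 1 of the 4 arrays of 3151T4 limma called 0 of the 46, with 31 or 32 at an unadjusted p under 0.05. It called 4 without 3583T3 Nfib replicate 1, 9 without 3583T3 Mycl1 replicate 1 and 30 without 3583T3 Mycl1 replicate 2. The median over the 8 fits without 1 array stayed between -1.03 and -0.69. The median was -0.24 in 3583T3 and -1.24 in 3151T4, and 21 of the 46 were called different between lines, against 9.1% of all genes. In 3583T3 it was -0.47 without Nfib replicate 2.

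Pes1, a subunit of the PeBoW complex that processes large subunit RNA, had 10.17 and 9.51 (3583T3) and 9.80 and 10.07 (3151T4) with Mycl1, against 8.93 and 9.32, and 8.57 and 8.58, with Nfib. It was 2.05-fold higher with Mycl1 and did not overlap (-1.04 ± 0.21, limma, adjusted p = 0.0151). Utp20, of the small subunit processome, had 10.44 and 10.10, then 9.78 and 9.78, with Mycl1 and 9.34 and 10.02, then 8.38 and 8.08, with Nfib (2.10-fold, -1.07 ± 0.24, limma, adjusted p = 0.0223). Utp4 (-0.91 ± 0.21), of the same processome, and Tsr1 (-0.84 ± 0.21), a factor of small subunit maturation, were called too. Bysl (-0.87 ± 0.20) and Ppan (-1.01 ± 0.23), which act in small and large subunit assembly, followed. In 3583T3 the Nfib array with high Mycl was the one nearer the Mycl1 arrays for Pes1, Utp20 and Ppan (9.32 against 8.93, 10.02 against 9.34 and 9.0 against 8.54), and for Bysl it was the one farther away (9.59 against 9.65).

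CACGTG was in the window of 8 of the 18 called ribosome biogenesis genes that had one (44.4%), and of 11 of the 40 tested (27.5%). It was in 12.1% of the 6999 tested genes with a window, in 16% of those called higher with Mycl1, in 9.13% of those called higher with Nfib and in 7.15% of all windows.

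Other growth lists had few calls, to be read against the 5.07% of all genes called higher with Mycl1. Of 48 mitochondrial ribosomal protein genes 44 differences were negative and 6 were called (median -0.36), 17 without 3583T3 Nfib replicate 2, 14 without 3583T3 Mycl1 replicate 2, 3 without 3583T3 Nfib replicate 1 and 1 without any 1 of the 3151T4 arrays. Mrpl34 differed by -1.08 ± 0.20, Mrpl16 by -0.57 ± 0.12, Mrpl40 by -0.64 ± 0.14 and Mrpl12 by -0.64 ± 0.16. Of 33 nucleoporins and Ran transport genes 3 were called higher with Mycl1, of 27 nucleotide synthesis genes 3, of 21 RNA polymerase I and III genes 2 and of 18 aminoacyl-tRNA synthetases 1. Without 3583T3 Nfib replicate 2 these became 11, 8, 6 and 3, and without any 1 of the 3151T4 arrays all 4 counts were 0. They also moved with other 3583T3 arrays, to 12, 7, 4 and 6 without Mycl1 replicate 2 and to 0, 1, 2 and 0 without Nfib replicate 1. Named members were Ranbp1 (-0.58), Umps (-0.86), Gart (-0.84), Polr3g (-1.05), Polr1e (-0.98) and Vars (-1.09). Without any 1 of the 3151T4 arrays none of these 6 was called (limma, adjusted p up to 0.144). For the cell cycle the calls were few: Ccne1, cyclin E1, had 10.01 and 9.72, then 9.02 and 9.07, with Mycl1 and 8.25 and 8.81, then 7.48 and 7.61, with Nfib (2.67-fold, -1.41 ± 0.17, limma, adjusted p = 0.00135). It was the 1 called of 38 genes of DNA replication, of which 6 were called without 3583T3 Nfib replicate 2 and 6 without 3583T3 Mycl1 replicate 2. Of 39 genes of mitosis limma called 0, with 7 at an unadjusted p under 0.05, all 7 higher with Mycl1.

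Among epithelial and neuroendocrine genes most calls were higher with Mycl1. Of 18 genes of epithelial junctions and keratins that passed the filter, of 31 on the array, 5 were higher with Mycl1 (against 5.07% of all genes) and 1 with Nfib (median -0.82). The 5 became 2 or 3 without any 1 of the 3151T4 arrays. Dsp, the desmosomal plaque protein desmoplakin, had 10.37 and 10.22 (3583T3) and 8.42 and 8.57 (3151T4) with Mycl1, against 9.14 and 9.10, and 6.25 and 6.30, with Nfib (3.24-fold, -1.70 ± 0.22, limma, adjusted p = 0.0021). Krt19, a keratin, differed by -1.59 ± 0.31 and the plakophilin Pkp2 by -0.70 ± 0.14. A second plakophilin, Pkp1, went the other way, with 10.05 and 9.64, then 9.90 and 9.87, with Nfib and 8.27 to 8.43 with Mycl1 (2.86-fold higher with Nfib, 1.51 ± 0.15, limma, adjusted p = 0.000515).

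Of the 11 neuroendocrine genes that passed the filter, 5 were higher with Mycl1, against 5.07% of all genes (median -0.60), and 3 or 4 with 1 array left out. Besides Bex1 and Bex4 these included Uchl1, a ubiquitin hydrolase of neurons, with 10.54 and 9.93, then 11.01 and 11.39, with Mycl1 and 9.52 and 7.88, then 9.53 and 9.50, with Nfib (3.05-fold, -1.61 ± 0.31, limma, adjusted p = 0.013). Foxa1, a pioneer factor of lung epithelium, differed by -0.60 ± 0.12. Of 18 smooth muscle contractile genes 5 were called higher with Mycl1, against 5.07% of all genes, and 1 or 2 without any 1 of the 3151T4 arrays. Tagln had 13.15 and 12.31 (3583T3) and 10.79 and 11.14 (3151T4) with Mycl1, against 12.29 and 11.89, and 8.70 and 8.33, with Nfib (2.92-fold, -1.54 ± 0.36, limma, adjusted p = 0.024). Actg2 (-2.49 ± 0.61), Myl9 (-1.28 ± 0.26) and Csrp1 (-0.69 ± 0.12) were called as well. Without any 1 of the 3151T4 arrays Tagln and Actg2 were not called (limma, adjusted p up to 0.0834 and 0.104).

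**Figure D3:**
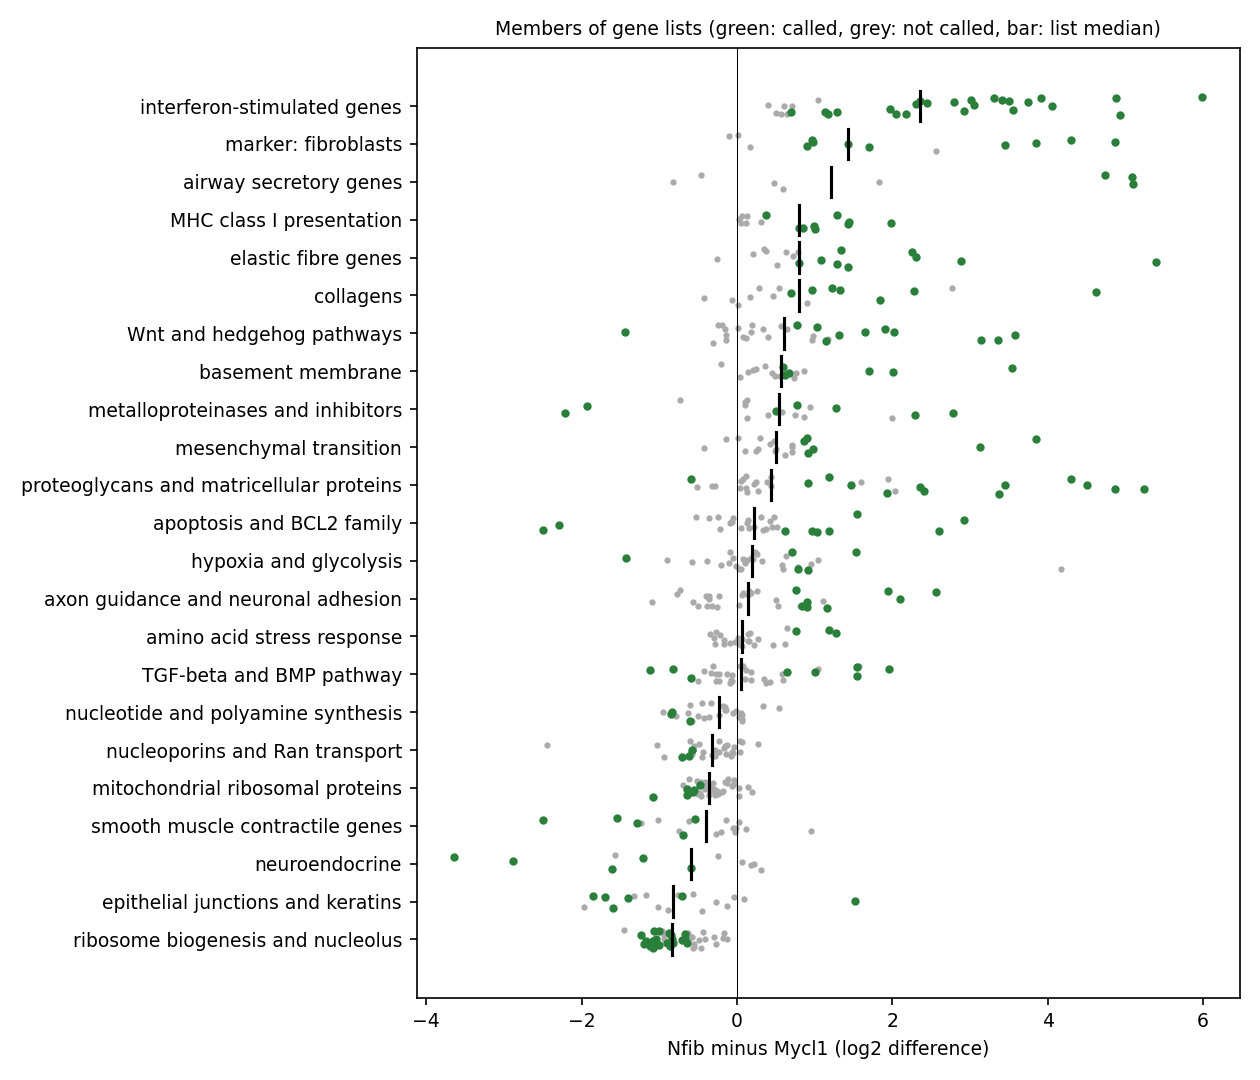
Log2 difference Nfib minus Mycl1 (horizontal axis) of each tested member of 23 gene lists, with called members in green, the others in grey and a bar at the list's median. Interferon-stimulated genes lie to the right with a median of 2.35 and ribosome biogenesis genes to the left with a median of -0.83.

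The lists with few or no calls included those of stress, lipids and the vector genes' own families. In some most differences were positive: 11 of 12 Hox genes, 15 of 19 cholesterol genes, 7 of 8 integrins and 16 of 22 endoplasmic reticulum chaperones. Positive too were 16 of 25 genes of the amino acid stress response, 12 of 22 RB and p53 genes and 2 of 4 nuclear factor I genes. Of 22 endoplasmic reticulum chaperones limma called 0, with 4 at an unadjusted p under 0.05, all 4 higher with Nfib. Of 22 genes of the RB and p53 pathways it called 0, with 7 at that level, 3 higher with Nfib and 4 with Mycl1. Of 8 integrins it called 0 and of 4 nuclear factor I genes 0, with 0 and 1 at an unadjusted p under 0.05. Atf5 (0.76 ± 0.15), a transcription factor of the amino acid stress response, Cebpb (1.28 ± 0.28) and Stc2 (1.19 ± 0.32) were the 3 called of 25 genes of that response. Pmvk (0.68 ± 0.18) was the 1 called of 19 cholesterol genes and Hoxb6 (0.96 ± 0.26) the 1 called of 12 Hox genes. These calls were all higher with Nfib, where the share of all genes was 7.63%. With 1 array left out, Cebpb, Stc2, Pmvk and Hoxb6 lost the call (limma, adjusted p up to 0.0781, 0.138, 0.124 and 0.144).

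The lines were then compared with each other. Within 3583T3, 476 genes (5.53%) were called, 330 (3.83%) higher with Nfib and 146 (1.7%) with Mycl1. Within 3151T4 they were 2520 (29.3%), 1403 (16.3%) with Nfib and 1117 (13%) with Mycl1. Without 3583T3 Nfib replicate 2 the first count was 677 (7.87%). With the 4 arrays of a line fitted alone the counts were 262 and 3881. Called in both lines with the same sign were 306 genes (244 with Nfib, 62 with Mycl1), and 18 were called with opposite signs. The test of the difference itself, the difference in 3151T4 minus that in 3583T3, called 783 genes (9.1%). In 672 of the 783 the larger difference was in 3151T4, and in 372 the signs were opposite. Without 3583T3 Nfib replicate 2 it called 893 (10.4%), of which 678 were shared with the same sign.

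On the positive side of that test were genes that, among the 8 arrays compared, were high on the 3151T4 Nfib arrays alone. Car9, a carbonic anhydrase of the cell surface induced by hypoxia, had 10.88 and 10.81 there and 2.48 to 3.33 on the other 6 arrays. Epyc, a small proteoglycan, had 10.36 and 9.92 there and 1.82 to 3.08 elsewhere. Lum, lumican, had 10.73 and 10.55 against 1.64 to 2.75, Ecrg4, a secreted peptide precursor, had 10.88 and 10.74 against 2.64 to 3.76, and Scara5, a scavenger receptor, had 9.42 and 9.88 against 2.02 to 2.88. Their differences between lines were 8.01, 6.96, 7.23, 7.01 and 7.24 (limma, adjusted p from 1.8e-06 to 4.62e-06). All of them passed the filter through the 3151T4 Nfib arrays alone, so a positive sign was largely fixed in advance. On the 3151T4 Nfib+Mycl1 arrays, outside the comparison, Car9 had 8.37 and 8.45 and Epyc 7.79 and 6.34. Lum and Ecrg4 were called over both lines as well, although in 3583T3 they lay near the floor, and both lost that call without any 1 of the 3151T4 arrays (limma, adjusted p up to 0.145 and 0.1435).

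On the negative side Cd34, a sialomucin of progenitor and stromal cells, had 8.89 and 9.65 with Nfib against 3.07 and 3.48 with Mycl1 in 3583T3, and 4.83 and 4.65 against 5.86 and 5.33 in 3151T4. The direction was therefore opposite in the 2 lines, though the difference in 3151T4 was not called (-0.86, limma, adjusted p = 0.0633). The difference between the lines was -6.85 (limma, adjusted p = 1.68e-05). Asb5 had 10.33 and 9.63 on the 3151T4 Mycl1 arrays and 2.37 to 4.77 on the other arrays compared (-6.11). Outside the comparison it had 8.52 and 9.06 on the untransfected 3151T4 arrays and 7.53 and 7.41 on the 3151T4 Nfib+Mycl1 arrays. Hoxa10 had 8.86 and 6.17 against 3.16 and 4.6 in 3583T3, and 6.76 and 7.26 against 9.23 and 8.41 in 3151T4 (-5.45). Tub differed between lines by -5.54 and Stk26 by -4.09.

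**Figure D4:**
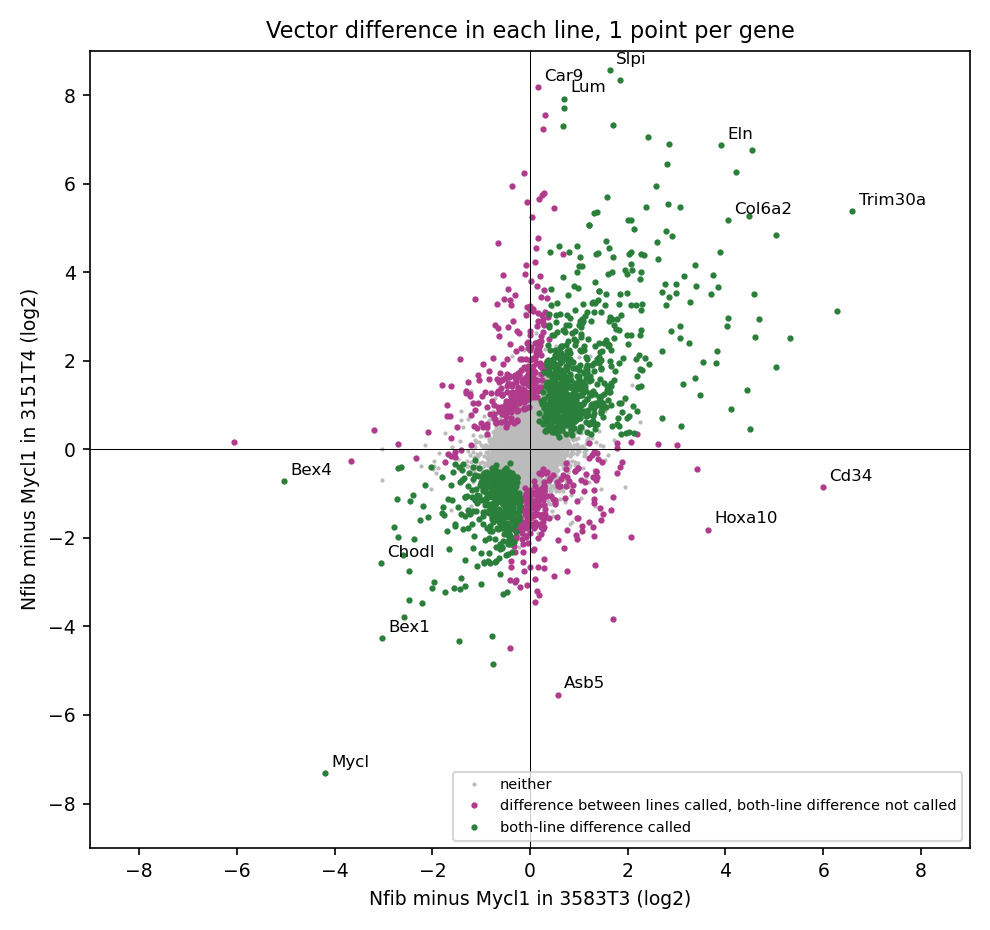
Log2 difference Nfib minus Mycl1 in 3583T3 (horizontal axis) and in 3151T4 (vertical axis), 1 point per tested gene, with the 1093 genes called over both lines in green. Car9 lies high on the vertical axis with little difference in 3583T3, and Cd34 lies to the right with a negative value in 3151T4.

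The 8 arrays outside the comparison were then placed on its scale. For the genes called at least 2-fold over both lines and differing at least 2-fold the same way within the line, 0 is the line's Mycl1 mean and 1 its Nfib mean. The ends of this scale come from the same arrays that chose the genes, so only the other arrays' places are informative, and they are a description. In 3583T3, the arrays labelled Nfib+Mycl1 lay near the Nfib end, with median places of 0.879 and 0.902 over 255 genes higher with Nfib and 0.949 and 0.960 over 74 genes higher with Mycl1. Of these 2 arrays, replicate 2 had Mycl near the floor. The untransfected arrays of that line lay near the Mycl1 end, at 0.152 and 0.196, and 0.127 and 0.220.

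In 3151T4 the order was another. The Nfib+Mycl1 arrays had median places of 0.282 and 0.317 over 389 genes higher with Nfib, nearer the Mycl1 end, and 0.426 and 0.296 over 164 genes higher with Mycl1. Untransfected 3151T4 cells lay between, at 0.390 and 0.403, and 0.378 and 0.443. When 3583T3 Nfib replicate 2 was left out of choosing the genes and of the Nfib mean, that array itself had a median place of 0.782 over 293 genes higher with Nfib and 0.608 over 96 genes higher with Mycl1. On the same scale 3583T3 Nfib+Mycl1 replicate 1 had 0.645 and 0.546, and replicate 2 had 0.948 and 0.877. The untransfected 3583T3 arrays moved to 0.331 and 0.312 for genes higher with Nfib, and to 0.610 and 0.596 for genes higher with Mycl1, past the middle of the scale.

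**Figure D5:**
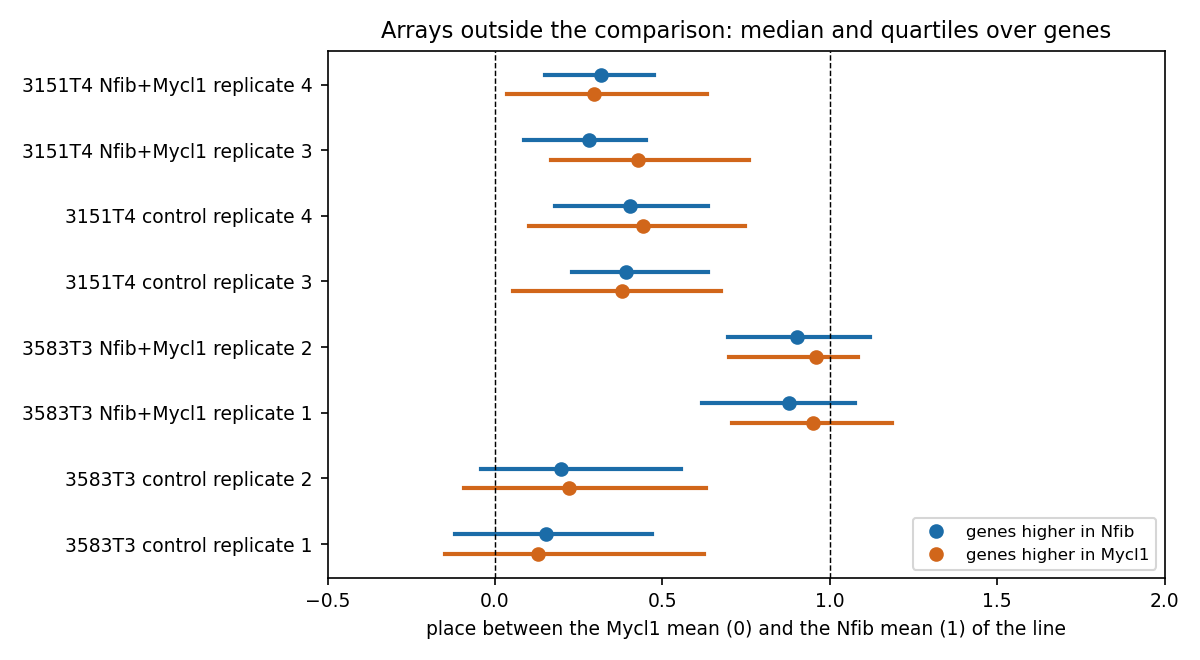
Place of each array outside the comparison between the Mycl1 mean (0) and the Nfib mean (1) of its line (horizontal axis), as the median (point) and quartiles (line) over genes called at least 2-fold. The 3583T3 Nfib+Mycl1 arrays lie at 0.879 to 0.960, and the 3151T4 Nfib+Mycl1 arrays at 0.282 to 0.426.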

How the data were processed

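For each array the authors deposited log2 signals of its probe sets. The submitters' processing notes name GCRMA 2.20.0 and R 2.11.0. No label gives the scale, and log2 was read from the range of the values (0.8626 to 14.36 on the 8 arrays). The array held 22690 probe sets, of which 64 are controls, 20380 have 1 gene symbol, 691 several and 1555 none. Of the 20380, 20351 were found in the reference table by gene number and 0 symbols differed. No column was left out (0).

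Each gene was tested on its brightest probe set (by mean signal on the 8 arrays), after a filter at log2 4 on at least 2 arrays. A gene can pass through the arrays of 1 vector alone, as Trim30a, Sod3, Eln, Ces2g, Lum and Chodl did among others. Its sign is then largely fixed in advance. The fit used limma 3.58.1 (R 4.3.3; lmFit and eBayes, with the prior variance as a trend in mean signal) and had vector and line as terms, which leaves 5 residual degrees of freedom. Values within lines and the difference between lines were contrasts of the 4 means of line and vector, with 4 residual degrees of freedom. The procedure was tested on simulated data. P-values were adjusted over all tested genes by Benjamini-Hochberg, and for other probe sets of a named gene over all probe sets. A gene is called at an adjusted p under 0.05. Folds are 2 raised to the log2 difference and understate genes near the floor of the signal; the number of arrays limits the precision.

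The rule for naming genes took the probe sets of Nfib, Mycl, Mycn and Myc, the 12 largest called differences in each direction with the same sign in both lines, the 5 largest line differences in each direction, and up to 4 called members with the smallest p of each of 38 lists (2 where fewer were called); predicted symbols were skipped. Col1a1, Chga, Syp and other cell markers are named from the marker lists. The members and lists were chosen with earlier results of these data known. The motifs were searched in RefSeq promoter windows after the values were seen. The closing section gives the effect of other filters, normalizations, variance models and arrays.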

Additional observations from a re-analysis of the deposited data

Results flagged for a closer look

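Among the named genes, the value of 1 array lay far from the other 3 of its vector in 9 of 270 groups of 4 arrays by Dixon's ratio of the gap to the range. Each group pools arrays of both lines, so the usual chance rate of this ratio does not apply and the 9 cannot be set against it. On the array labelled 3583T3 Nfib replicate 2, Mycl was at 10.22 (others 2.12 to 2.553), Uchl1 at 7.884 (others 9.499 to 9.53), Mrpl12 at 10.69 (others 10.19 to 10.28) and Mrpl40 at 10.85 (others 10.33 to 10.4). On 3583T3 Nfib replicate 1, Irf9 was at 8.732 (others 9.498 to 9.626) and Usp18 at 7.828 (others 9.691 to 9.928). Among the Mycl1 arrays, Sod3 was at 3.695 in 3583T3 replicate 1 (others 3.209 to 3.283), Hoxb3 at 3.477 in 3583T3 replicate 2 (others 3.173 to 3.216) and Sfrp2 at 11.05 in 3151T4 replicate 4 (others 10.63 to 10.7).

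The vector difference itself differed between the lines, tested as the difference in 3151T4 minus that in 3583T3 (limma), by 8.007 for Car9, 7.24 for Scara5, 7.233 for Lum, 7.01 for Ecrg4 and 6.96 for Epyc. It differed by -6.852 for Cd34, -6.106 for Asb5, -5.54 for Tub, -5.447 for Hoxa10 and -4.091 for Stk26. Car9, Scara5, Lum, Ecrg4 and Epyc passed the filter through the 3151T4 Nfib arrays alone, which largely fixed their sign in advance.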

How the results depend on the processing

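The counts below are given in the order both lines, at least 2-fold, 3583T3, 3151T4 and difference between lines, where the reported counts are 1093, 595, 476, 2520 and 783. When all probe sets were tested instead of the brightest of a gene, they were 1756, 915, 721, 4177 and 1232. Array weights gave 3376, 1162, 288 and 3863 for the first 4. Fitting all 16 arrays gave 1920 over both lines and 1181 between lines. Leaving out 1 array in turn gave 373 to 1776, 317 to 874, 240 to 717, 1235 to 2980 and 279 to 1454. The model with 4 means gave 2310 over both lines, and no line term gave 82, of which 80 at least 2-fold. The 4 arrays of a line alone gave 262 and 3881. With the 2 arrays of each line and vector averaged, limma called 0 genes (0 at least 2-fold) with 1038 at an unadjusted p under 0.05, in a fit with fewer samples. No filter, a stricter filter (log2 6), a second quantile normalization, centring on medians, no mean-variance trend and robust eBayes kept all 5 counts within 1.5 times. Where not stated, the cause was not tested.

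The labels do not say whether same-numbered arrays of a line share more than the number. Their deviations correlated at 0.1002 (3583T3) and 0.0487 (3151T4), which cannot show that nothing else is shared. With the replicate block 413 genes were called over both lines, 342 at least 2-fold, and the other 3 counts stayed within 1.5 times.

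Of 111 named genes called over both lines, 43 lost the call without at least 1 array, 35 of them without each of the 4 arrays of 3151T4. Over all settings 3 values of named genes, none of them called, changed sign: Hoxa10 to -0.40 with array weights and -0.17 without 3583T3 Nfib replicate 1 (-0.17 to 1.62 over the 8 fits without 1 array), and Mycn to 0.0022 without 3583T3 Mycl1 replicate 1 (-0.32 to 0.0022). Differences of genes at the floor of the signal are limited by background.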
